A study of Mus musculus with 12 samples.

Results

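The genes described here are markers of cells that share adipose tissue with the adipocyte progenitors: epithelial, mesothelial, endothelial, Schwann, mural and myogenic cells. They were chosen by gene symbol from lists of lineage markers, 44 entries with 43 gene symbols, and 40 of these are among the 19429 genes of a mouse RNA sequencing series on the microRNA miR-26. All 40 are in the table of the knockout comparison and 36 in the table of induced miR-26a. Krt5, Myf5 and Pax7 are in neither table, and Cldn7, Gpm6a, Muc16 and Sox17 are in the knockout table alone. Each table lists the genes with a value above 0 in all 6 of its libraries.

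The cells were primary cultures from white fat of C57BL/6 mice aged 6 weeks, namely its stromal vascular fraction, which is everything left once mature adipocytes are removed. TKO cells (3 libraries) lacked both copies of all 3 miR-26 genes (miR-26b-/-, miR-26a-2-/- and miR-26a-1-/-), and WT cells (3 libraries) were wild type, and both were grown until confluent. Dox cells (3 libraries) carried the transgenes M2rtTA and eGFP.miR-26a and were given doxycycline, 1 mg/ml for 4 days, which switches on transgenes that respond to M2rtTA. CTL cells (3 libraries) had both transgenes and no doxycycline. The labels do not name the fat depot or the promoters that drive the transgenes, and they do not say whether replicates are separate mice, so p-values measure the spread between these libraries. The recovered depth was 71455177 to 83461527 reads in TKO libraries, 54978109 to 61307142 in WT libraries, 19301969 to 25785441 in Dox libraries and 20182665 to 24122542 in CTL libraries. Mature miR-26 was not measured, so the knockout and the induction were not checked on it here.

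Epithelial cells line ducts and surfaces and are held together by keratin filaments and claudin junctions. Mesothelial cells form the serous covering of internal fat pads, endothelial cells line vessels, mural cells wrap them, and Schwann cells ensheathe the nerves that enter the tissue. Myogenic cells make skeletal muscle. A culture of stromal vascular cells is dominated by fibroblast-like progenitors, and these other cells can persist in it at low abundance. All 11 progenitor markers looked up were listed, and their summed signal was 26190 to 27320 in TKO libraries, 19820 to 21080 in WT libraries, 25140 to 39460 in Dox libraries and 24370 to 37090 in CTL libraries, with the collagen genes Col1a1 and Col3a1 as the main part. Col3a1 was higher in every TKO library than in WT libraries, at 12141 to 13850 against 7302 to 7651. Thy1 was lower in every TKO library, at 358 to 525 against 704 to 789, and so was Dlk1. The other progenitor markers overlapped between TKO and WT, and none of these differences was tested. In bulk RNA, fewer cells of a type and less RNA per cell cannot be told apart.

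MicroRNAs lower the output of messenger RNAs that pair with their seed, bases 2 to 8 from the 5′ end. The mature strands deleted or induced here are shown with the seed in capitals, from RefSeq on GRCm38.p6. miR-26a is made from chr9:119031811-119031832 (+) and chr10:126995543-126995564 (+), and miR-26b from chr1:74394324-74394344 (+).
miR-26a-5p: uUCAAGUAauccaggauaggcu
miR-26b-5p: uUCAAGUAauucaggauaggu

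Both strands share the same seed. Of the 39 members with an annotated 3′ untranslated region (UTR), 0 held the full match of 8 letters, TACTTGAA, and 4 (10.3%) held a match of 7, either TACTTGA or ACTTGAA. Among all genes tested in the knockout comparison with a 3′ UTR, 5.09% held the full match and 21.8% a match of either length. The median 3′ UTR was 915 bases long for the 39 members and 1199 for the genes tested. Of the 27 members tested in the knockout comparison, 2 (7.41%) held a match, and their median 3′ UTR was 1000 bases long. Other parts of the transcripts, and other transcripts of the same gene, were not searched. The 4 sites are shown because no other match was found in the 3′ UTRs searched (GENCODE vM21, GRCm38), with the match in capitals. They lie at chr11:100203201-100203229 (−) in Krt14, chr11:106654571-106654599 (−) in Pecam1, chr9:37538237-37538265 (+) in Esam and chr1:4491563-4491591 (−) in Sox17.
Krt14: gcttcactcttTACTTGAcccttgtcctt
Pecam1: aatggccagtcACTTGAAgacagacctca
Esam: tttaaaatctgACTTGAAattgatgtttt
Sox17: ttttgtctgccACTTGAAcagttgagggg

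Neither Flt1 and Egfl7, which limma called in TKO against WT, nor Kdr and Ngfr, which it called with paired Dox and CTL replicates, held such a match in the 3′ UTR searched. A match is a description of letters and not evidence of pairing.

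The groups overlapped for most members in both comparisons, and the libraries of a group differed among themselves. The values are signal, the authors' reads scaled to a common depth, and values of a group follow the order of replicates 1, 2 and 3 throughout. A gene was tested with limma on log2(signal + 1) where 3 or more of the 6 libraries had a signal of 1 or above, and p-values were adjusted over all genes tested. In TKO against WT, 27 members were tested and 13 were below that filter. 1 member rose, 1 fell, and 25 did not pass at an adjusted p of 0.05, which is 7.41% called, while 45.8% of all 12649 genes were called (23.2% higher and 22.7% lower). Groups did not overlap for those 2 members, beside 58.8% of all genes. The median log2 fold change of the 27 was −0.14, and −0.001 over all genes. Their median standard error (SE) was 0.38, against 0.103 over all genes, and 26 of the 27 had an SE above that median. In Dox against CTL, 33 members were tested, 3 were below the filter, and limma called 0 of them, beside 0.0% of all 12634 genes. At an unadjusted p under 0.05 limma called 1 member, Kdr, and 748 genes (5.92%). At an adjusted p under 0.05 edgeR called 0 genes, and DESeq2 called 99 genes with Kdr among them. The median log2 fold change of the 33 was 0.20, and 0.011 over all genes. Pairs of Dox and CTL libraries rest on the replicate numbers in the column names, where Dox replicates 2 and 3 carry one and the same sequencing suffix. With same-numbered libraries paired, 2 members rose and 0 fell, beside 0.562% of all genes higher and 1.54% lower.

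**Figure D1:**
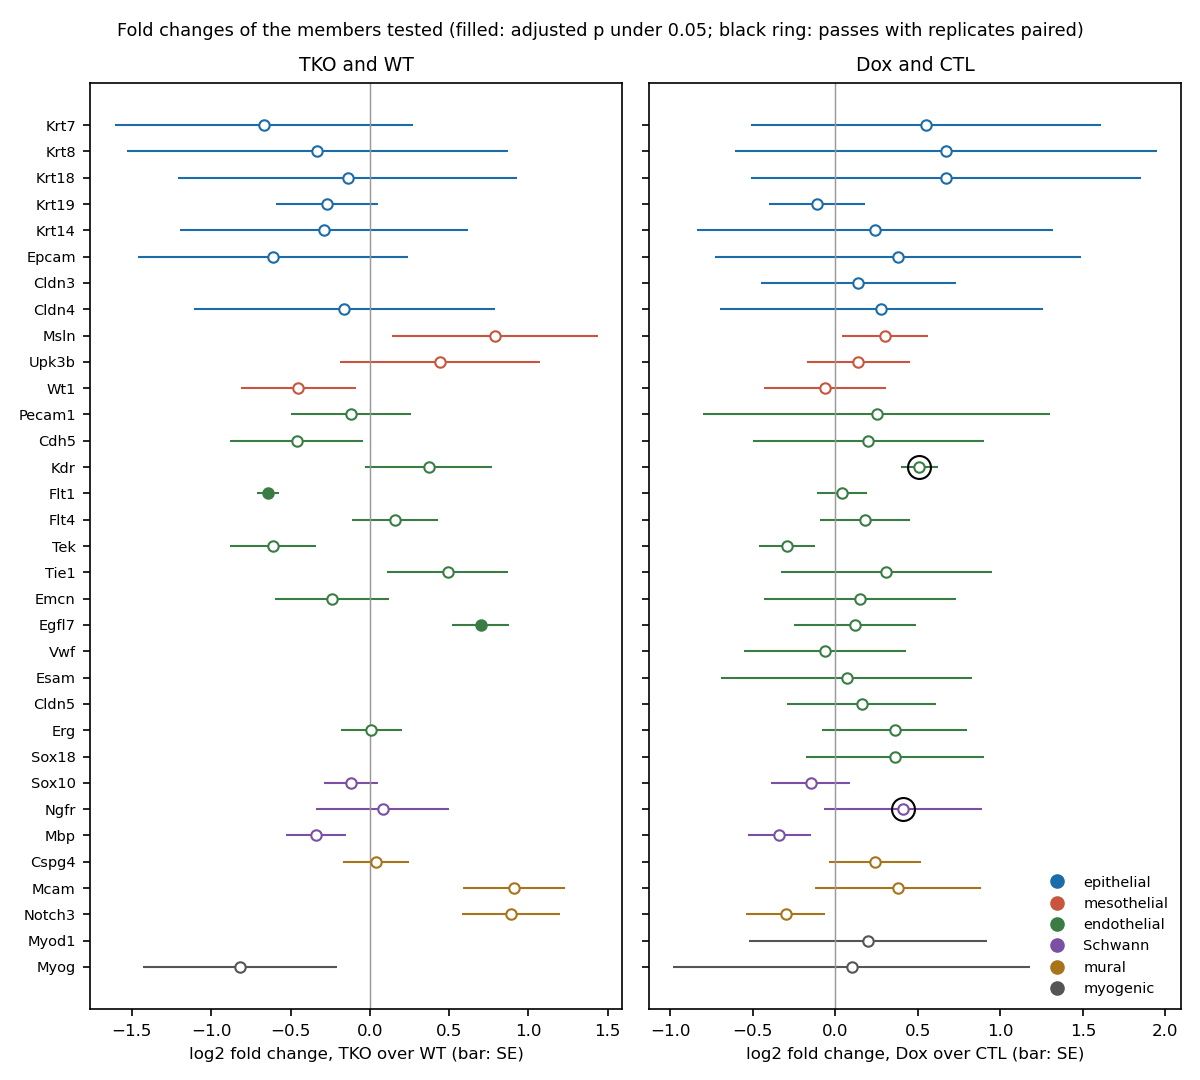
Log2 fold change of each tested member, TKO over WT on the left and Dox over CTL on the right, with bars for the SE (3 libraries a group) and colours for the lineage. Filled points passed an adjusted p of 0.05 (Flt1 and Egfl7), and a black ring marks the members that passed by limma with paired replicates (Kdr and Ngfr).

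Libraries of the same group spread further apart for the members than for the median gene. The highest TKO library was at least 5 times the lowest for 10 of the 27 members, and for 1.43% of all genes tested. For WT libraries the numbers were 4 of 27 and 0.237%. In the second comparison this held for 18 of 33 members in Dox libraries (2.29% of all genes) and 16 of 33 in CTL libraries (1.8% of all genes). The median ratio of highest to lowest library was 2.97 for members and 1.22 for all genes in TKO cells, 1.82 and 1.13 in WT cells, 6.2 and 1.27 in Dox cells, and 4.45 and 1.22 in CTL cells. For the epithelial members alone it was 132 in TKO cells, 4.73 in WT cells, 10.2 in Dox cells and 24.5 in CTL cells. The median was higher for the 3 mesothelial members in WT cells, at 6.78, and for the 2 myogenic members in Dox and CTL cells, at 11.3 and 31.2. Several of these ratios rest on few reads. In TKO replicate 1 Krt14 had 2 reads, Krt8 had 4, and Epcam and Cldn4 had 6 each. The members were not matched with genes of like signal.

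Epithelial keratins differed widely between libraries of the same group, and no epithelial member passed in either comparison. Krt8 and Krt18, the paired keratins of simple epithelia, set the pattern. Krt8 had a signal of 0.051, 5.66 and 31.0 in TKO libraries, and 10.5, 10.7 and 2.27 in WT libraries. Krt18 had 0.203, 8.55 and 23.4 in TKO libraries, against 8.77, 9.42 and 2.69 in WT libraries. TKO replicate 1 was far below every WT library and TKO replicate 3 above every one, so the groups overlapped fully. The Krt8 value in TKO replicate 1 stands for 4 reads (exact Poisson 95% interval 1.09 to 10.2, counting error only). The log2 fold change was −0.33 ± 1.2 (SE, adjusted p = 0.843) for Krt8 and −0.14 ± 1.07 (adjusted p = 0.925) for Krt18. Both estimates turned positive in the count models, 0.65 and 0.63 by edgeR, so these data give no direction for them. Part of Krt8 cannot be counted apart from a copy elsewhere: 26.9% of its stretches of 50 bases also occur in the pseudogene Krt8-ps.

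Krt7, a keratin of ductal and mesothelial lining, had 0.394, 2.30 and 16.4 in TKO libraries, and 7.91, 10.5 and 2.14 in WT libraries. Krt14, a keratin of basal epithelial cells, had 0.025, 1.14 and 11.1 in TKO libraries, against 4.04, 4.25 and 0.817 in WT libraries. Its lowest value stands for 2 reads, and 14.4% of its 50-base stretches recur in Krt16 and Krt17. Epcam, the epithelial adhesion molecule, had 0.076, 1.99 and 9.997 in TKO libraries, against 5.07, 6.98 and 1.62 in WT libraries. Cldn4, a claudin of tight junctions, had 0.076, 1.52 and 12.7 in TKO libraries, against 3.97, 5.13 and 0.69 in WT libraries. All of them were lowest in TKO replicate 1 and highest in TKO replicate 3, and within WT cells lowest in replicate 3. The log2 fold changes were −0.67 ± 0.94 for Krt7, −0.29 ± 0.91 for Krt14, −0.61 ± 0.85 for Epcam and −0.16 ± 0.95 for Cldn4, with limma adjusted p-values of 0.584 to 0.905. Krt14 and Cldn4 also changed sign in edgeR, to 0.43 and 0.55. Cldn3 and Cldn7, also tight junction genes, lay below the filter, at 0.038 to 1.46 in TKO libraries and 0.127 to 1.30 in WT libraries.

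Krt19, a small keratin with no partner of its own, did not follow the other keratins. Its signal was 10.9, 5.15 and 11.3 in TKO libraries, and 13.01, 12.4 and 7.47 in WT libraries. TKO replicate 1, where Krt8 was close to 0, was almost level with TKO replicate 3. The difference was −0.27 ± 0.32 (limma adjusted p = 0.511). The sum over the 9 epithelial members listed was 11.8, 27.2 and 119 in TKO libraries, and 54.5, 61.4 and 18.2 in WT libraries.

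In the doxycycline experiment Krt8, Krt18 and Krt7 kept one order of replicates in both groups. Krt8 had 80.5, 18.2 and 6.40 in Dox libraries, against 70.6, 12.9 and 1.89 in CTL libraries. Krt18 had 51.3, 10.9 and 5.55 in Dox libraries, against 46.4, 8.08 and 1.37 in CTL libraries. Krt7 had 49.2, 14.5 and 4.71 in Dox libraries, against 38.0, 10.6 and 2.17 in CTL libraries. Replicate 1 was highest and replicate 3 lowest with and without doxycycline, and the Dox library was above its same-numbered CTL library in each pair. Unpaired, the log2 fold changes were 0.67 ± 1.28, 0.67 ± 1.18 and 0.55 ± 1.06, each with a limma adjusted p of 0.999. Paired, Krt7 had the lowest epithelial value, 0.55 ± 0.12 with an adjusted p of 0.0531, which did not pass. It passed without pair 2 (0.00358) or pair 3 (0.0244), as Krt8 and Krt18 did without pair 1 (0.00679 and 0.00916) or pair 2 (0.00415 and 0.007). Leaving out a pair was added after the data were seen. Calls with a pair left out, here and below, were not set beside the share of all genes called in the same fit.

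The remaining epithelial members followed the same order. Krt14 had 24.6, 6.498 and 1.97 in Dox libraries, against 25.5, 5.56 and 0.99 in CTL libraries. Epcam had 19.98, 6.69 and 1.37 in Dox libraries, against 18.7, 5.56 and 0.33 in CTL libraries. Cldn4 had 20.8, 5.28 and 2.58 in Dox libraries, against 20.7, 5.61 and 0.896 in CTL libraries. All 3 genes were highest in replicate 1 and lowest in replicate 3 of either group. Cldn3 had 4.78, 1.06 and 0.483 in Dox libraries, against 3.40, 1.03 and 0.472 in CTL libraries, in the same order. Krt19 again stood apart, at 18.3, 10.9 and 12.9 in Dox libraries and 19.4, 9.67 and 17.7 in CTL libraries, lowest in replicate 2. For these 5 genes the log2 fold change lay between −0.11 and 0.38, and none passed with or without pairing. The sum over the 8 epithelial members listed was 269, 74.1 and 36.0 in Dox libraries, and 243, 59.0 and 25.8 in CTL libraries.

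The leukocyte markers, of which 5 of 7 were listed and the lymphocyte genes Cd3e and Cd79a were not, ran in the same order in the doxycycline experiment. Their sum was 117, 65.4 and 22.9 in Dox libraries, and 143, 66.3 and 32.9 in CTL libraries. In the knockout experiment they did not, with 49.98, 237 and 41.9 in TKO libraries, and 39.8, 30.7 and 50.2 in WT libraries. Adipocyte markers, 4 of 4 listed, summed to 115, 112 and 28.9 in TKO libraries, and 28.1, 29.7 and 30.9 in WT libraries. The 3 listed in the other table summed to 32.7, 40.2 and 33.45 in Dox libraries, and 36.9, 38.4 and 52.0 in CTL libraries. Fabp4 was the main part of that sum, at 27.4 to 39.6 over these libraries. Adipoq had 0.151, 0.152 and 3.22 in Dox libraries, and 0.527, 0.234 and 6.51 in CTL libraries. Plin1 was likewise highest in replicate 3 of both groups. The part of leukocytes and adipocytes in the values of the lineage markers was not tested.

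**Figure D2:**
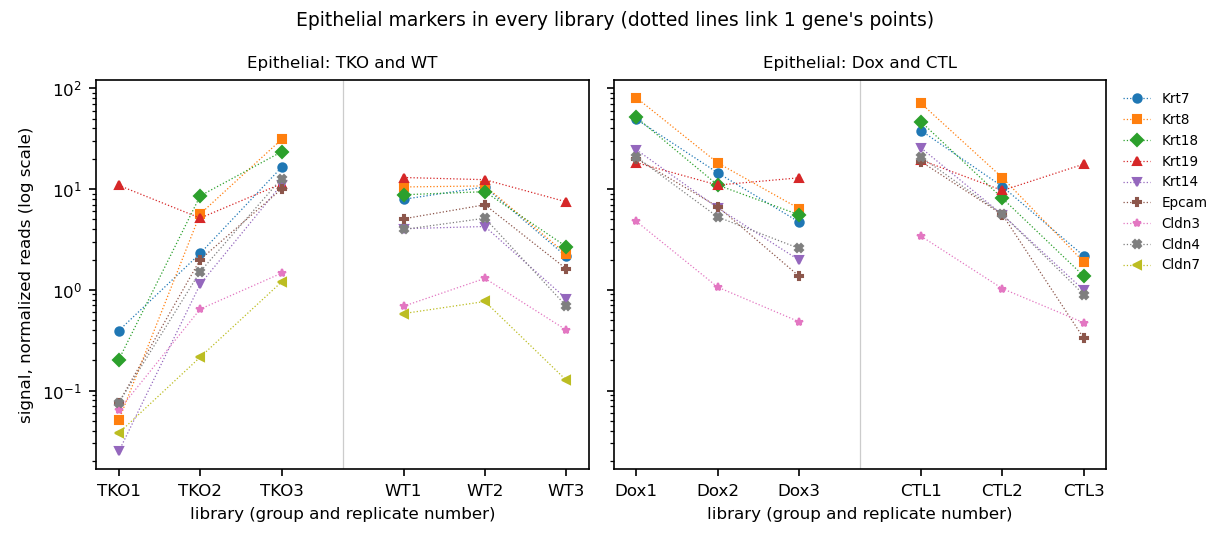
Signal of 9 epithelial markers in each library, on a log scale, with TKO and WT libraries on the left and Dox and CTL libraries on the right; dotted lines only link the points of 1 gene. Krt19 stays between 5.15 and 19.4, while Krt8 runs over 0.051 to 31.0 in TKO cells and 1.89 to 70.6 in CTL cells.

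Flt1 had the smallest adjusted p of the members in TKO against WT. Flt1 (VEGF receptor 1, which binds VEGF-A and also exists as a soluble decoy) had a signal of 27.3, 27.5 and 26.8 in TKO libraries, and 44.9, 44.3 and 39.5 in WT libraries. Every TKO library was below every WT library, and the ratio of the highest to the lowest TKO library was 1.03, the smallest of the 27 members. Flt1 fell by 0.64 ± 0.07 on the log2 scale (limma adjusted p = 0.000921). It passed under every alternative listed at the end, with adjusted p-values up to 0.00867. The authors' deposited table gives −0.66 with a false discovery rate of 2.7e-06. The gene lies at chr5:147561604-147726011 (−). No 50-base stretch of its exons recurs in another gene. In the doxycycline experiment Flt1 had 28.2, 24.1 and 25.9 in Dox libraries, against 29.1, 20.4 and 27.3 in CTL libraries, which overlapped (0.04 ± 0.15, adjusted p = 0.999).

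Egfl7, a protein that endothelial cells secrete into the matrix around vessels, was the other member called. Its signal was 3.15, 5.11 and 5.51 in TKO libraries, and 2.31, 2.62 and 2.20 in WT libraries. No WT library reached the lowest TKO library. It rose by 0.70 ± 0.18 on the log2 scale (limma adjusted p = 0.0198). The call was lost when a trend of fold change with gene length and GC content was removed, where the value was 0.36 with an adjusted p of 0.161. It was also lost without TKO replicate 3 (0.0539), WT replicate 1 (0.0647), WT replicate 2 (0.0508) or WT replicate 3 (0.0627). It held by edgeR (0.0162), by DESeq2 (0.00206), and by limma with library size scaling (0.0157). By limma it also held without TKO replicate 1 (0.00286) or TKO replicate 2 (0.0488). The authors' deposited table gives 0.95 with a false discovery rate of 0.022. Egfl7 at chr2:26580014-26593120 (+) shares exonic bases with Gm20532 and Mir126a on its own strand and with Agpat2 and Mir126b on the other. The strand setting of the counting is not given in the sources used here. Agpat2, an enzyme of triglyceride synthesis, had 25.9, 28.2 and 16.4 in TKO libraries, against 14.6, 14.2 and 16.8 in WT libraries (0.56, limma adjusted p = 0.055), and its part in the Egfl7 value was not tested. In the other experiment Egfl7 had 9.66, 6.46 and 3.18 in Dox libraries and 7.13, 5.84 and 3.63 in CTL libraries (0.12 ± 0.37, adjusted p = 0.999). Replicate 1 was highest and replicate 3 lowest in both groups.

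Kdr (VEGF receptor 2, the main signalling receptor for VEGF-A) was higher in each Dox library than in any CTL library. Its signal was 59.9, 49.3 and 56.4 in Dox libraries, and 42.5, 36.9 and 35.6 in CTL libraries. Groups did not overlap for 2 of the 33 members tested, Kdr (higher) and Mbp (lower), as for 12.2% of all genes. Unpaired, the log2 fold change was 0.51 ± 0.11 and did not pass by limma (adjusted p = 0.445), and by DESeq2 it did (0.0394). With paired replicates Kdr rose by 0.51 ± 0.08 (adjusted p = 0.0226). The paired call was lost without pair 1 (adjusted p = 0.0707) and held without pair 2 (0.000114) or pair 3 (0.00312). In the knockout experiment Kdr had 31.0, 70.9 and 91.9 in TKO libraries, and 33.2, 56.8 and 49.1 in WT libraries. TKO replicate 1 was below all WT libraries, and the other TKO libraries were above them. The log2 fold change was 0.37 ± 0.40 (adjusted p = 0.486), and without TKO replicate 1 it was 0.82 with an adjusted p of 0.036. Kdr lies at chr5:75932827-75978458 (−).

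The other vessel receptors did not pass in either comparison. Tek, the angiopoietin receptor, had 17.3, 9.62 and 9.16 in TKO libraries, against 24.4, 16.1 and 15.2 in WT libraries. Each TKO library was below its same-numbered WT library, but TKO replicate 1 was above WT replicates 2 and 3. Same-numbered TKO and WT libraries were not taken as pairs. The difference was −0.61 ± 0.27 (limma adjusted p = 0.109), and without TKO replicate 1 it was −0.89 with an adjusted p of 0.0169. Tek had 18.8, 21.3 and 13.4 in Dox libraries, against 20.3, 23.4 and 21.6 in CTL libraries. Each Dox library was below its same-numbered CTL library, although the groups overlapped (−0.29 ± 0.17, limma adjusted p = 0.905). Flt4, the VEGF receptor of lymphatic vessels, had 4.55, 2.56 and 5.64 in TKO libraries, against 3.69, 4.68 and 2.51 in WT libraries. In the treated cultures Flt4 had 6.39, 3.12 and 3.02 in Dox libraries, against 4.17, 2.90 and 3.16 in CTL libraries. Its groups overlapped in both experiments (0.16 ± 0.27 and 0.18 ± 0.27, adjusted p = 0.652 and 0.992). Tie1, the orphan partner of Tek, had 0.623, 2.20 and 3.69 in TKO libraries, against 1.04, 1.47 and 0.763 in WT libraries. Its values were 4.78, 2.39 and 0.322 in Dox libraries, and 3.53, 1.36 and 0.283 in CTL libraries. Replicate 1 was lowest in TKO cells and highest in Dox and CTL cells, and neither difference passed (0.49 ± 0.38 and 0.31 ± 0.64, adjusted p = 0.328 and 0.999). Without TKO replicate 1 the first was 0.90 with an adjusted p of 0.0227.

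The junction and adhesion genes of endothelium varied with the replicate. Cdh5 (VE-cadherin, the cadherin of endothelial junctions) had 5.01, 7.38 and 17.2 in TKO libraries, against 13.03, 16.7 and 8.59 in WT libraries. In the doxycycline experiment it had 29.3, 12.5 and 4.55 in Dox libraries, against 22.4, 9.62 and 5.05 in CTL libraries. Replicate 1 was highest and replicate 3 lowest with and without doxycycline. Pecam1 (CD31, an adhesion molecule of endothelium, platelets and some leukocytes) had 1.60, 4.999 and 6.32 in TKO libraries, against 4.57, 5.12 and 3.34 in WT libraries. It had 23.7, 6.99 and 1.05 in Dox libraries, against 15.3, 6.35 and 0.99 in CTL libraries. Pecam1 is one of the 4 members with a seed match, and neither difference passed (−0.12 ± 0.38 for TKO over WT and 0.25 ± 1.05 for Dox over CTL, adjusted p = 0.811 and 0.999). For Cdh5 the values were −0.46 ± 0.42 and 0.20 ± 0.70 (adjusted p = 0.409 and 0.999). Emcn, a sialoglycoprotein of venous and capillary endothelium, had 1.76, 1.99 and 3.36 in TKO libraries, against 3.05, 5.199 and 1.34 in WT libraries. It had 5.99, 1.44 and 0.966 in Dox libraries, against 4.42, 1.59 and 0.755 in CTL libraries, so that replicate 1 was again the highest (−0.24 ± 0.36 and 0.15 ± 0.58, adjusted p = 0.623 and 0.999).

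Erg, an ETS factor of endothelial cells, had 0.954, 1.07 and 1.78 in TKO libraries, against 1.27, 1.58 and 0.872 in WT libraries. Its groups overlapped (0.01 ± 0.19, adjusted p = 0.963). Sox18, a transcription factor of developing vessels, was tested in the doxycycline experiment alone, with 3.12, 1.48 and 0.121 in Dox libraries, against 1.82, 0.747 and 0.094 in CTL libraries. Erg followed it, with 2.97, 1.41 and 0.483 in Dox libraries, against 1.74, 1.07 and 0.189 in CTL libraries. Each Dox library was above its same-numbered CTL library for both factors, and neither passed (0.36 ± 0.54 for Sox18 and 0.36 ± 0.44 for Erg, adjusted p = 0.992 and 0.986). Esam, an endothelial junction molecule and another member with a seed match, had 5.94, 1.10 and 0.04 in Dox libraries, against 3.32, 1.68 and 0.141 in CTL libraries. Its lowest values stand for 1 read in Dox replicate 3 and 3 reads in CTL replicate 3, and the estimate of 0.07 ± 0.76 (adjusted p = 0.999) changed sign to −0.18 with a smaller pseudocount. Vwf, the clotting factor stored in endothelial cells, had 3.67, 1.71 and 0.362 in Dox libraries, against 2.80, 2.01 and 0.707 in CTL libraries. Cldn5, the claudin of endothelial tight junctions, had 1.91, 1.10 and 0.241 in Dox libraries, against 1.91, 0.794 and 0.047 in CTL libraries. The lowest CTL values of Cldn5, Sox18 and Erg stand for 1, 2 and 4 reads. All of these were highest in replicate 1 and lowest in replicate 3 of both groups, and Vwf and Cldn5 did not pass (−0.06 ± 0.49 and 0.16 ± 0.45, adjusted p = 0.999 each). In the knockout table Vwf, Esam, Cldn5, Sox17 and Sox18 lay below the filter, at 0.013 to 1.82 in TKO libraries and 0.054 to 1.017 in WT libraries. The 15 endothelial members listed summed to 94.7, 138 and 175 in TKO libraries, and 133, 158 and 125 in WT libraries. The 14 listed in the other table summed to 204, 134 and 110 in Dox libraries, and 161, 115 and 99.6 in CTL libraries.

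**Figure D3:**
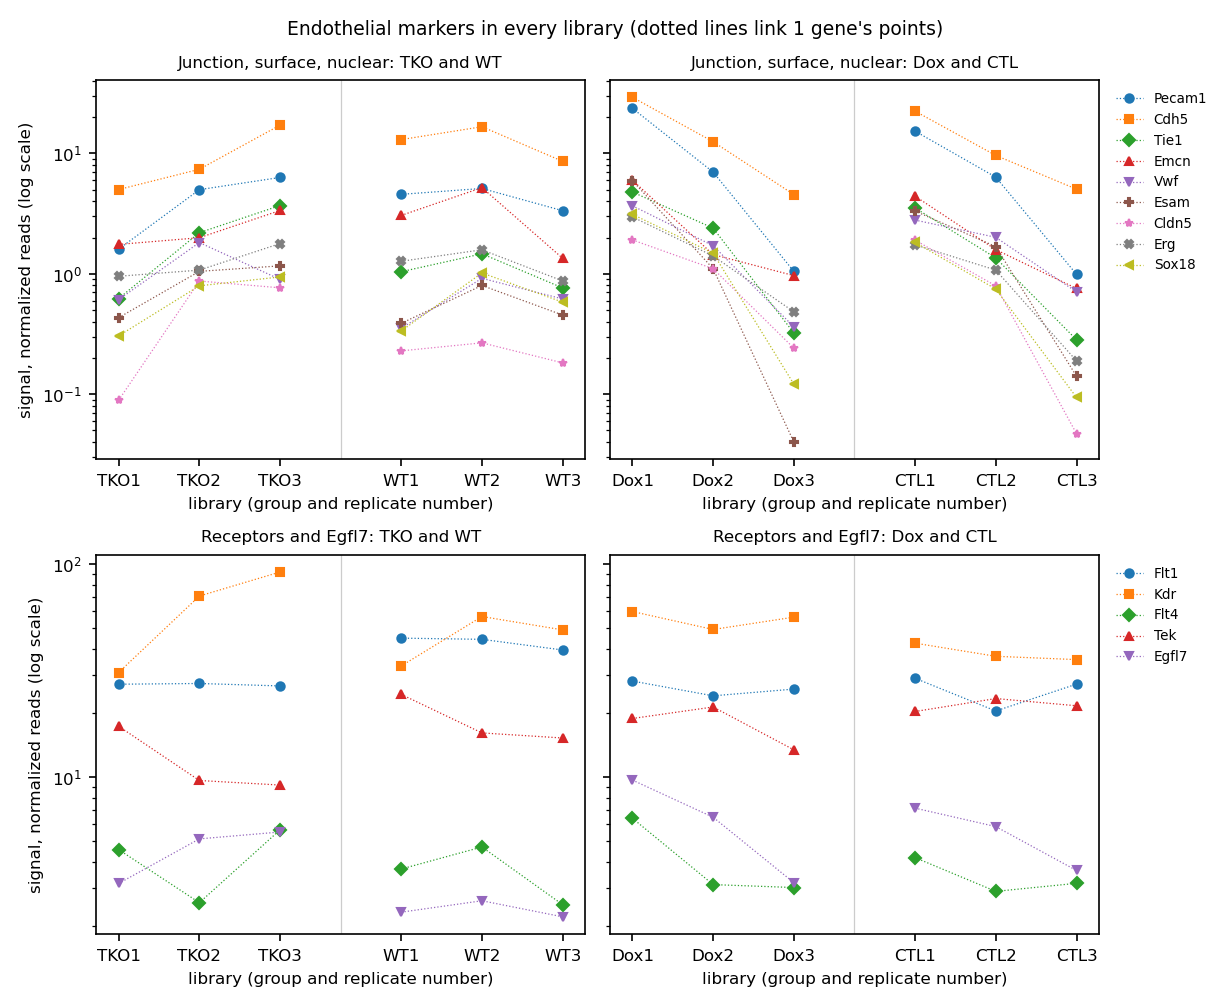
Signal of endothelial markers in each library on a log scale, junction, surface and nuclear genes above, receptors and Egfl7 below (Sox17 is not drawn). All upper genes are highest in replicate 1 and lowest in replicate 3 of Dox and CTL cells, Pecam1 down to 1.05 and 0.99, while Flt1 lies between 20.4 and 29.1 there and is lower in TKO than in WT libraries.

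Ngfr was the member with the highest signal per kilobase of exon in all 4 groups, 24.6 in TKO cells, 20.6 in WT cells, 50.6 in Dox cells and 39.1 in CTL cells. Ngfr is the low-affinity neurotrophin receptor of Schwann cells and is also made by some fibroblasts. Its signal was 170, 255 and 98.0 in Dox libraries, and 141, 198 and 64.9 in CTL libraries. Replicate 2 was highest and replicate 3 lowest in both groups, and each Dox library was above its same-numbered CTL library, although the groups overlapped. Unpaired, the difference was 0.41 ± 0.48 (limma adjusted p = 0.983). Paired, Ngfr rose by 0.41 ± 0.08 (adjusted p = 0.0406). That call was lost without pair 1 (adjusted p = 0.0935) or pair 3 (0.0538) and held without pair 2 (0.000985). In the knockout experiment it had 45.6, 148 and 60.2 in TKO libraries, and 58.2, 66.2 and 88.9 in WT libraries (0.08 ± 0.42, adjusted p = 0.885). The high library was TKO replicate 2, which also had the highest leukocyte sum given above. Of the progenitor markers looked up, Lum and Dcn kept the replicate order of Ngfr in all 4 groups. The others and the leukocyte sum did not. Lum had 56.8, 419 and 116 in TKO libraries, and 67.1, 81.0 and 199 in WT libraries. It had 134, 216 and 75.1 in Dox libraries, and 169, 276 and 58.7 in CTL libraries. This was seen after the fact and was not tested. Without TKO replicate 2 the Ngfr estimate changed sign to −0.41.

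Other Schwann cell genes were much lower per kilobase and did not pass. Sox10, the transcription factor that specifies glia of the neural crest, had 2.29, 1.41 and 2.03 in TKO libraries, against 2.68, 2.10 and 1.71 in WT libraries. It had 1.81, 0.95 and 0.724 in Dox libraries, against 1.54, 0.934 and 1.65 in CTL libraries. Per kilobase Sox10 reached 0.626 in TKO cells, 0.709 in WT cells, 0.381 in Dox cells and 0.451 in CTL cells, and its groups overlapped (−0.12 ± 0.17 and −0.15 ± 0.24, adjusted p = 0.591 and 0.992). Mbp, myelin basic protein, had 4.46, 8.07 and 6.55 in TKO libraries, against 8.58, 7.12 and 8.72 in WT libraries. With doxycycline Mbp had 8.56, 8.63 and 5.47 in Dox libraries, against 11.3, 9.16 and 8.63 in CTL libraries, with each Dox library below all CTL libraries, by the narrowest margin between Dox replicate 2 and CTL replicate 3. The differences, −0.34 ± 0.19 in both comparisons, did not pass (adjusted p = 0.192 for TKO over WT and 0.904 for Dox over CTL). Paired without pair 2, Mbp passed at −0.47 (adjusted p = 0.0274). Foxd3, a neural crest factor, lay below the filter in both tables, at 0.341 to 0.521 in TKO libraries, 0.309 to 0.60 in WT libraries, 0.402 to 0.705 in Dox libraries and 0.093 to 0.424 in CTL libraries.

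The mural markers Mcam and Notch3 came closest to a call in TKO cells without passing. Mcam (CD146, an adhesion molecule of pericytes, smooth muscle and endothelium) had 28.5, 13.7 and 32.5 in TKO libraries, and 13.2, 13.8 and 9.50 in WT libraries. Notch3, the Notch receptor of vascular smooth muscle and pericytes, had 33.0, 13.6 and 28.2 in TKO libraries, and 12.3, 13.7 and 10.7 in WT libraries. TKO replicates 1 and 3 were above all WT libraries, and TKO replicate 2 was within the WT range for both genes. The log2 fold changes were 0.91 ± 0.32 for Mcam and 0.89 ± 0.31 for Notch3, with limma adjusted p-values of 0.0533 and 0.0531. Both passed by edgeR (0.0352 and 0.0327), and without TKO replicate 2 both passed by limma at 1.27 and 1.26 (0.00244 and 0.00134). The authors' deposited table gives false discovery rates of 0.031 and 0.026. Notch3 shares exonic bases with Gm17276 on the other strand, whose signal was at most 0.292 in TKO libraries and 0.25 in WT libraries. Cspg4 (NG2, a proteoglycan of pericytes) had 54.6, 42.4 and 77.9 in TKO libraries, against 49.1, 54.5 and 61.5 in WT libraries. Its groups overlapped (0.04 ± 0.21, adjusted p = 0.879).

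In the doxycycline experiment Mcam had 36.1, 11.2 and 17.9 in Dox libraries, against 25.2, 8.08 and 15.4 in CTL libraries. Notch3 had 23.9, 16.0 and 12.2 in Dox libraries, against 25.4, 17.9 and 19.9 in CTL libraries. Within pairs Mcam was higher and Notch3 lower in each Dox library, and neither passed (0.38 ± 0.50 and −0.30 ± 0.24, adjusted p = 0.987 and 0.964). Paired, Mcam had an adjusted p of 0.0902 and passed without pair 2 (0.0362) or pair 3 (0.00671). Cspg4 had 55.8, 45.5 and 63.8 in Dox libraries, against 43.3, 31.9 and 70.2 in CTL libraries, with replicate 2 lowest in both groups (0.24 ± 0.28, adjusted p = 0.983, and paired without pair 3, 0.00555).

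Mesothelial markers were low, and their order over libraries differed in part from that of the keratins. Msln, mesothelin, a surface protein of mesothelium, had 0.534, 5.96 and 4.92 in TKO libraries, against 0.477, 0.967 and 3.23 in WT libraries. Upk3b, a uroplakin of mesothelial cells, had 0.305, 3.67 and 4.43 in TKO libraries, against 0.353, 1.33 and 3.22 in WT libraries. Replicate 1 was lowest in both groups, as TKO replicate 1 was for Krt8, Krt18 and Krt7, and Upk3b had their order in TKO libraries. WT replicate 3, lowest for the keratins, was highest for Msln and Upk3b. The log2 fold changes were 0.79 ± 0.65 for Msln and 0.44 ± 0.63 for Upk3b (adjusted p = 0.355 and 0.601). Without TKO replicate 1 Msln reached 1.48 and passed (adjusted p = 0.038). Wt1, a transcription factor of mesothelium that some fat progenitors also make, had 4.06, 11.8 and 8.14 in TKO libraries, against 7.29, 13.1 and 11.9 in WT libraries (−0.45 ± 0.36, adjusted p = 0.341). It too was lowest in replicate 1 of both groups.

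With doxycycline Msln had 1.76, 1.75 and 4.03 in Dox libraries, against 1.99, 1.68 and 1.56 in CTL libraries. Upk3b had 0.705, 1.90 and 1.45 in Dox libraries, against 0.527, 1.96 and 0.99 in CTL libraries. Wt1 had 8.56, 11.1 and 4.87 in Dox libraries, against 9.89, 11.5 and 4.67 in CTL libraries. Upk3b and Wt1 were highest in replicate 2 of both groups, the high Msln library was Dox replicate 3, and all groups overlapped (0.30 ± 0.26 for Msln, 0.14 ± 0.31 for Upk3b and −0.06 ± 0.37 for Wt1, adjusted p = 0.966 to 0.999). Upk1b, Lrrn4, Gpm6a and Muc16, further mesothelial genes, lay below the filter. Their values were 0.025 to 0.795 in TKO libraries and 0.088 to 1.04 in WT libraries. The pair listed in the other table, Upk1b and Lrrn4, had 0.101 to 0.646 in Dox libraries and 0.041 to 0.467 in CTL libraries.

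Myog and Myod1, transcription factors that drive muscle differentiation, varied together between libraries. Myog had 1.06, 5.10 and 0.598 in TKO libraries, against 3.67, 7.88 and 1.67 in WT libraries. Myod1, below the filter there, had 0.178, 1.15 and 0.111 in TKO libraries, against 0.971, 2.23 and 0.527 in WT libraries. Replicate 2 was highest and replicate 3 lowest in either group, and each TKO library was below its same-numbered WT library. The groups overlapped for both genes, and these numbers were not taken as pairs. The Myog difference of −0.82 ± 0.61 did not pass (adjusted p = 0.306). Myog had 16.2, 15.1 and 1.41 in Dox libraries, against 21.0, 11.7 and 0.943 in CTL libraries. Myod1 had 4.03, 3.95 and 0.362 in Dox libraries, against 3.77, 3.32 and 0.094 in CTL libraries. Replicate 3 held the least of both genes with and without doxycycline, and neither difference passed (0.10 ± 1.08 and 0.20 ± 0.72, adjusted p = 0.999 each). The ratio of Myog to Myod1 signal was 4.44 to 5.93 in TKO libraries, 3.17 to 3.78 in WT libraries, 3.82 to 4.01 in Dox libraries and 3.52 to 10 in CTL libraries. The highest of these ratios rests on 2 reads of Myod1.

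**Figure D4:**
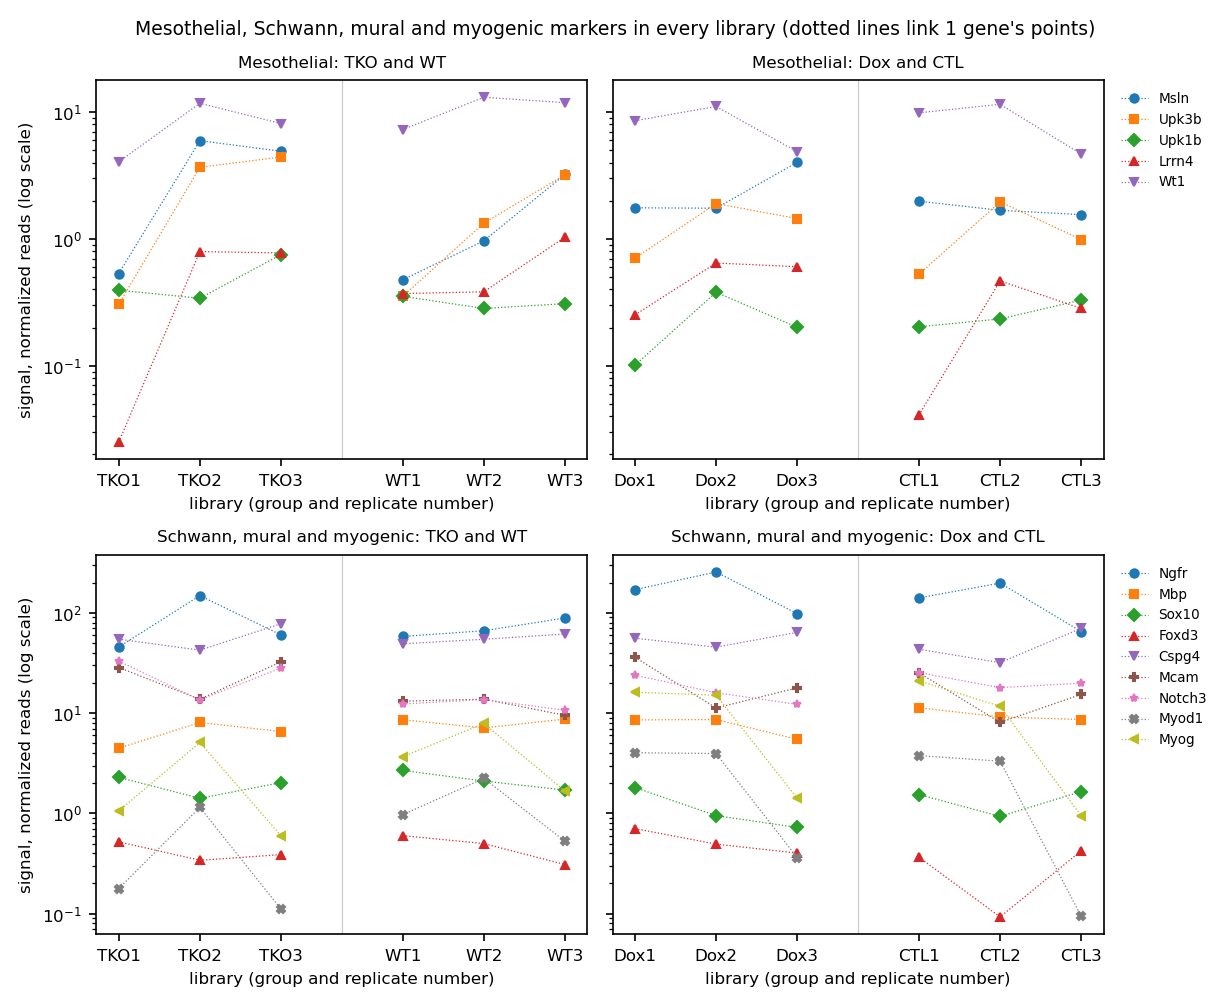
Signal of mesothelial markers (above) and of Schwann, mural and myogenic markers (below) in each library on a log scale (Gpm6a and Muc16 are not drawn). Msln and Upk3b are lowest in TKO and WT replicate 1, Myog and Myod1 are low in Dox and CTL replicate 3, and Ngfr or Cspg4 is the highest point of the lower panels in every library.

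Of the 33 members tested in Dox against CTL, 30 had the same replicate number highest in both groups, against 54.1% of all genes, and 27 the same number lowest, against 55.4%. The 30 include all 8 epithelial and all 14 endothelial members tested, and 1 of the 3 Schwann members. Replicate 1 was the highest Dox library for 26 members and the highest CTL library for 27. Among all genes these shares were 26.1% for Dox replicate 1 and 35.6% for CTL replicate 1. Replicate 3 was the lowest Dox library for 26 members and the lowest CTL library for 24, against 31.4% and 36.6% of all genes. The Dox library was above its same-numbered CTL library in all 3 pairs for 14 of the 33 members, against 21.4% of all genes, and below it in all 3 for 3 members, against 18.2%. Members of a lineage can come from the same cells of a library, which was not tested, so these counts were not taken as independent observations. In the knockout experiment the same number was highest in both groups for 6 of 27 members, against 30.9% of all genes. TKO replicate 1 was lowest for 18 of the 27 (33.6% of all genes), and WT replicate 3 was lowest for 20 (37.5% of all genes). Without TKO replicate 1, 6 of 27 members were called, with 4 higher and 2 lower, beside 5632 of all 12486 genes. Without TKO replicate 2, 4 of 26 were called, with 3 higher and 1 lower, beside 5472 of 12458 genes. Without WT replicate 1, 2 or 3 only 1 member was called, Flt1. All genes called were then 4208 of 12514, 3887 of 12512 and 4617 of 12524.

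**Figure D5:**
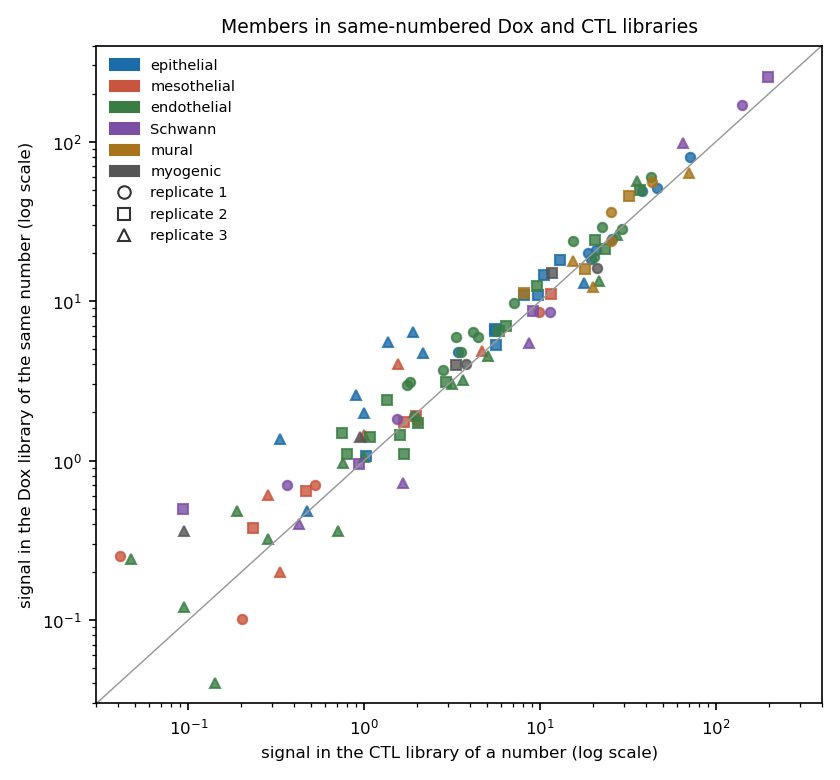
Signal of the 36 listed members in each Dox library (vertical) against the CTL library of the same number (horizontal), both on log scales, with the diagonal of equal values; colours give the lineage and shapes the replicate. The CTL values run from 0.041 to 198, with Ngfr at the top, and points lie closer to the diagonal at high signal than below a signal of 1.

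Further markers of the same lineages, which were not members, were also tested. In TKO against WT 8 of 42 passed, which is 19.0% beside 45.8% of all genes. By lineage, 1 of 4 epithelial genes tested fell, 2 of 7 mesothelial genes rose, 1 of 11 endothelial genes rose and 1 fell, 1 of 6 Schwann genes fell, 1 of 8 mural genes rose and 1 fell, and 0 of 6 myogenic genes passed. Cdh3, P-cadherin, had 27.7, 19.1 and 25.8 in TKO libraries, against 38.7, 45.6 and 53.1 in WT libraries, and fell by 0.90 ± 0.17 on the log2 scale (limma adjusted p = 0.00563). In the doxycycline experiment it had 32.2, 26.4 and 70.0 in Dox libraries, against 16.8, 13.97 and 32.4 in CTL libraries. Cdh3 was higher in every pair there, and rose by 0.95 with pairing (adjusted p = 0.00364), but not without (0.841). Cdh1, E-cadherin, instead followed Krt8, with 0.127, 1.54 and 12.1 in TKO libraries, against 6.07, 8.30 and 1.58 in WT libraries. Cdh1 was also highest in replicate 1 with and without doxycycline, at 15.3, 4.64 and 1.89 in Dox libraries, against 17.1, 4.86 and 0.849 in CTL libraries. Neither Cdh1 difference passed (limma adjusted p = 0.552 and 0.999), and the difference in Cdh3 between the experiments was not tested.

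Of the 3 further markers per lineage with the highest mean signal, 17 were tested in TKO against WT, and 1 rose, 3 fell and 13 did not pass. Aldh1a2, a retinoic acid enzyme of mesothelium, had 46.8, 39.6 and 39.1 in TKO libraries, against 25.6, 31.0 and 22.3 in WT libraries. It rose by 0.66 ± 0.13 (limma adjusted p = 0.00761), without overlap between the groups. Pmp22, a myelin protein that fibroblasts also make, had 248, 231 and 219 in TKO libraries, against 387, 369 and 337 in WT libraries. It fell by 0.64 ± 0.08 on the log2 scale (adjusted p = 0.00139), again without overlap. Pdgfrb, a receptor of pericytes and of adipose progenitors, had 854, 776 and 1036 in TKO libraries, against 1251, 1233 and 1181 in WT libraries. It fell by 0.47 ± 0.12 on the log2 scale (adjusted p = 0.0168), and its highest TKO library was below all WT libraries. Cdh3 was the other that fell. Among those that did not pass, Acta2, the smooth muscle actin, had 2854, 1919 and 2342 in TKO libraries, against 3299, 3377 and 2969 in WT libraries (−0.46 ± 0.16, adjusted p = 0.0538). Efemp1, a matrix protein, had 436, 100.02 and 153 in TKO libraries, against 531, 340.5 and 231 in WT libraries (−0.88 ± 0.56, adjusted p = 0.239). TKO replicate 1 lay within the WT range for Efemp1, and all TKO libraries lay below WT for Acta2. Eng, a TGF-beta co-receptor of endothelium, differed by −0.05 ± 0.11 (adjusted p = 0.752), and Des, the muscle filament protein desmin, by −0.08 ± 0.30 (adjusted p = 0.855). In Dox against CTL no further marker passed unpaired. With pairing 3 of 46 passed, which is 6.52% beside 2.1% of all genes. By lineage, 1 of 6 epithelial genes rose, 1 of 12 endothelial genes rose and 1 fell, and 0 passed of 6 mesothelial, 6 Schwann, 8 mural and 8 myogenic genes. The endothelial gene that rose was Ets1, an ETS factor also made outside vessels, with 86.9, 66.4 and 93.9 in Dox libraries, against 60.9, 50.2 and 56.8 in CTL libraries (0.54, paired adjusted p = 0.0214). Every Dox library was above every CTL library for Ets1.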

How the data were processed

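Polyadenylated RNA of 12 libraries was prepared with a stranded kit and sequenced as single reads. Per the submitters' processing notes, TopHat2 2.0.12, featureCounts 1.4.6, edgeR 3.8.6 and StringTie 1.2.2 were used with GRCm38 (mm10). The strand setting of the counting is not given in the sources used here. The signal values deposited by the authors are reads per fixed library size, further multiplied by a factor for each library, so whole reads could be recovered within 0.1. The tables of the 2 experiments were normalized apart, and no value was compared across them by a test. Deposited log2 fold changes and false discovery rates (adjusted p-values) are the authors' own, from edgeR, and the deposited score (a likelihood ratio) was not used.

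Genes reaching a signal of 1 in 3 or more of 6 libraries were tested with limma 3.58.1 (trend) on log2(signal + 1). P-values were adjusted over every gene tested by the Benjamini-Hochberg method, and 0.05 was the threshold. The planned test was one for counts if the files held counts. As they held scaled values, edgeR 4.0.16 (quasi-likelihood) and DESeq2 1.42.0 on the recovered reads were alternatives. The script was tested on simulated data. The SE covers the spread between libraries, and exact Poisson intervals cover counting error only. Deviations of same-numbered Dox and CTL libraries from their group means correlated at 0.863, 0.584 and 0.736 across 12634 genes, so these numbers were taken as pairs. The column names of Dox replicates 2 and 3 carry one and the same sequencing suffix, so each was matched to its sample by replicate number, and every Dox order and pair rests on that. For TKO and WT the correlations were 0.449, −0.135 and −0.293, and they were not. Exon overlaps and 3′ UTRs came from GENCODE vM21, with 1 transcript per gene for the UTRs, and microRNA sequences from RefSeq.

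The members and the lists of further markers were chosen with earlier results of these data known. All members in a table were named, and of the further markers at most 3 per lineage, those with the highest mean signal. Alternatives were another pseudocount, no filter, library size scaling, both count models, a replicate block, removal of a length and GC trend, and leaving out each library. Leaving out each pair was added after the data were seen.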

Additional observations from a re-analysis of the deposited data

How the results depend on the processing

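Of the counts, genes called in TKO against WT stayed within 1.5 times of 5796 under every alternative, and under library size scaling the median gene moved by 0.115 on the log2 scale and the split became 3840 higher and 1916 lower, where it had been 2930 and 2866. The 2 members called became 4 with library size scaling, edgeR or DESeq2 (3 higher, 1 lower), 1 with the length and GC trend removed, and 1 to 6 with 1 library left out. A replicate block for TKO and WT, whose numbers do not pair, gave 4 (1 higher, 3 lower; Tek and Myog joined) and 5101 genes. In Dox against CTL the 0 genes called became 99 with DESeq2, 265 with the replicate block and 233 with the block and the trend removed, and 0 to 1405 with a library or a pair left out. For members the counts were 1, 2 and 2, and 0 to 7, and the block changed the call of no member other than Kdr and Ngfr. The causes were not tested.

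Some differences that did not pass changed sign. In TKO against WT, Krt8 was 0.65 by edgeR and 0.64 by DESeq2, Krt18 0.63 and 0.62, Krt14 0.43 and 0.41, Cldn4 0.55 and 0.54, Pecam1 0.00 by edgeR, and Ngfr −0.05 with the trend removed. In Dox against CTL, Vwf was 0.03 by edgeR and 0.05 by DESeq2, Myog −0.06 and −0.05, and Esam −0.18 with a pseudocount of 0.1. With 1 library left out, log2 fold changes in TKO against WT ran over −1.68 to 0.15 for Krt7, −1.52 to 0.94 for Krt8, −1.09 to 1.08 for Krt18, −0.51 to 0.05 for Krt19, −1.30 to 0.48 for Krt14, −1.48 to 0.19 for Epcam, −1.18 to 0.66 for Cldn4, −0.42 to 0.32 for Pecam1, −0.03 to 0.42 for Flt4, −0.60 to 0.10 for Emcn, −0.14 to 0.12 for Erg, −0.23 to 0.01 for Sox10, −0.41 to 0.43 for Ngfr and −0.18 to 0.25 for Cspg4. With 1 library or 1 pair left out, those in Dox against CTL ran over −0.37 to 1.44 for Krt7, −0.48 to 1.83 for Krt8, −0.37 to 1.79 for Krt18, −0.40 to 0.06 for Krt19, −0.67 to 1.2 for Krt14, −0.65 to 1.30 for Epcam, −0.43 to 0.59 for Cldn3, −0.60 to 1.15 for Cldn4, −0.04 to 0.51 for Msln, −0.08 to 0.36 for Upk3b, −0.41 to 0.23 for Wt1, −0.62 to 1.18 for Pecam1, −0.41 to 0.82 for Cdh5, −0.11 to 0.13 for Flt1, −0.11 to 0.33 for Flt4, −0.17 to 0.89 for Tie1, −0.41 to 0.60 for Emcn, −0.19 to 0.49 for Egfl7, −0.49 to 0.40 for Vwf, −0.68 to 0.69 for Esam, −0.22 to 0.49 for Cldn5, 0.00 to 0.71 for Erg, −0.04 to 0.77 for Ngfr, −0.02 to 0.54 for Cspg4, −0.05 to 0.75 for Mcam, −0.49 to 0.82 for Myod1 and −0.94 to 1.03 for Myog. Flt1 in TKO against WT kept its direction and its call throughout. Depth limits single values that stand for 1 to 4 reads. At more reads libraries of 1 group could still differ beyond counting error, as for Msln with 42 reads in TKO replicate 1 (30.3 to 56.8) and 472 in TKO replicate 2 (430 to 517).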

Other observations

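Some markers of other cells, looked up to check the labelled cell type and not tested here, also differed by library. Adipoq, the adipocyte hormone adiponectin, had 16.0, 16.3 and 0.787 in TKO libraries, against 1.18, 1.85 and 2.80 in WT libraries, so that TKO replicates 1 and 2 stood apart. Lyz2, the lysozyme of macrophages, had 34.1, 181 and 30.5 in TKO libraries, against 24.1, 18.0 and 31.0 in WT libraries, with TKO replicate 2 highest. Dpp4, a surface marker of interstitial progenitors, had 39.9, 17.6 and 3.30 in Dox libraries, against 39.1, 16.5 and 4.48 in CTL libraries. That is the order of Krt8, Pecam1 and the leukocyte sum in the same libraries. Dlk1, an imprinted gene of preadipocytes, had 21.8, 118 and 105 in Dox libraries, against 18.0, 86.0 and 76.0 in CTL libraries, with replicate 1 lowest in both. These 4 genes were singled out after their values were seen.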
